A study of Mus musculus with 15 samples.

Results

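The 43 genes described here act in mitosis and in its approach in G2. They were chosen by name, with earlier results of these data known. They were followed across mouse embryonic fibroblasts of the c57bl/6 strain with and without earlier and new exposure to interferon beta. All 43 were found among the 24015 genes of the deposited count tables, and all 43 were among the 13802 genes kept for testing. The cells were labelled NSD2 KO, Nsd2(-/-), or WT, Nsd2(+/+), where NSD2 is a histone H3 lysine 36 methyltransferase listed in the tables under its older symbol Whsc1. Pretreated cells received interferon beta at 100 units/ml for 3 h, were washed and then went 24 h without it, while naive cells had no earlier dose. In each state RNA was taken either 2 h after interferon beta at 100 units/ml was added (2 h) or with none added (0 h). The 15 libraries made 8 groups: KO pretreated at 2 h and at 0 h, KO naive at 2 h and at 0 h, WT pretreated at 2 h and at 0 h, and WT naive at 2 h and at 0 h. Each group had 2 libraries except KO naive at 2 h, which had 1. The labels do not say how many fibroblast lines or embryos stood behind each genotype, nor that replicates came from separate cultures, so the p-values below are set by library-to-library spread alone, part of which may be technical.

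Entry into mitosis is driven by Cdk1 bound to B-type cyclins, with A-type cyclin acting just before it. The Aurora and Polo-like kinases build the spindle, the spindle checkpoint holds the cell until every kinetochore is attached, and the anaphase-promoting complex then destroys securin and cyclin B so that separase can part the sister chromatids. Many of these genes are transcribed in G2 through a promoter element called the cell cycle genes homology region (CHR), which is bound by the MuvB complex together with B-Myb and FoxM1, often beside CCAAT boxes bound by NF-Y. Type I interferons are known for their ability to slow the division of many cell types.

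The promoters carried those letters more often than the promoters of genes at large. A RefSeq window of 300 bases, 250 before and 50 after the annotated start, was at hand on the GRCm38.p6 build for 36 of the 43 genes. Searched on both strands for TTTGAA or TTCGAA, the window held a CHR element in 27 of the 36 genes (75.0%), against 21.7% of 27025 genes with a window. A CCAAT box (the letters CCAAT, both strands, sharing no more than an end base with the CHR letters) was in 27 of the 36 genes (75.0%), against 41.1% of all genes. Both motifs together were in 24 of the 36 genes (66.7%), against 8.6% of all genes. The windows of Ccnb1, Mad2l1, Pttg1, Birc5, Plk4, Nek2, Kif18a, Cenpe and Nuf2 held no such CHR letters. A match is a description of these letters and not a site shown to be bound.

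Levels were not compared between genes with and without a CHR element. The 120 bases before the start are shown for 4 genes with both motifs and for Cenpe, which was chosen after its levels were seen. Each is read 5′ to 3′ on the gene's strand, with capitals on the CHR elements and CCAAT boxes. They lie at chr10:69352913-69353032 for Cdk1 (minus strand), chr4:118437344-118437463 for Cdc20 (minus strand), chr2:164769809-164769928 for Ube2c (plus strand), chr19:37376262-37376381 for Kif11 (plus strand) and chr3:135212443-135212562 for Cenpe (plus strand).
Cdk1: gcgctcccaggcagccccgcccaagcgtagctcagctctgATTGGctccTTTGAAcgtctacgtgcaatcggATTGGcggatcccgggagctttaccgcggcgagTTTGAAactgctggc
Cdc20: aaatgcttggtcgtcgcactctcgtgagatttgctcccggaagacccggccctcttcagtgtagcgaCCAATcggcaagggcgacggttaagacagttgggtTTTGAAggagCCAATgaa
Ube2c: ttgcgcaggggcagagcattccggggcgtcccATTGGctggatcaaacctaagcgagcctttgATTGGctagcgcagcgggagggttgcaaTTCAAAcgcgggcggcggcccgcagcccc
Kif11: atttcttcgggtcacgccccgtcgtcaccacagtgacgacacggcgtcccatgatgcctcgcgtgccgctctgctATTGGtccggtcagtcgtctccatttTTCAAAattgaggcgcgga
Cenpe: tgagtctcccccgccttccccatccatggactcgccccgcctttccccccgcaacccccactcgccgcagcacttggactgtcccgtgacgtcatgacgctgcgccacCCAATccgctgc

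Gene counts per library ran between 17170845 and 44116418 (median 28585502). The ribosomal repeat Rn45s and Lars2 together took 10.57% to 29.44% of them, and 3 libraries stood low: WT naive 0 h replicate 1, WT pretreated 2 h replicate 1 and KO pretreated 0 h replicate 2. Levels are therefore given in CPM, the depth-normalised count, after scaling by the trimmed mean of M values (TMM), and the calls under plain library totals are given beside the counts they change. Whsc1 had 95.65 to 110.5 CPM in KO libraries, against 108.4 to 115.5 CPM in WT naive and 133.1 to 146.1 CPM in WT pretreated libraries, so its count alone does not check the KO label. Fibroblast marker genes summed to 12110 to 13900 CPM in KO libraries and 13200 to 16680 CPM in WT libraries, while macrophage and blood, endothelial and muscle markers stayed at or below 5.408 CPM in sum, with Emr1, Tyrobp, Cd3e, Myod1 and Pax7 at 0. Epithelial markers, mostly Krt19, summed to 52.42 to 74.31 CPM in KO libraries and 17.48 to 31.11 CPM in WT libraries, and nerve and glia markers, mostly Tubb3, to 56.29 to 72.04 CPM in KO libraries and 24.31 to 32.63 CPM in WT libraries. Among the fibroblast markers the genotypes differed widely one by one, as with Pdgfra at 19.34 times (log2 4.27, SE 0.071, edgeR adjusted p = 1.1e-28) and Dcn at 0.2355 times (log2 -2.09, SE 0.132, adjusted p = 2e-14) in KO naive against WT naive cells at 0 h. Depth was ample for the mitotic genes: the lowest count of any of them in a library was 170 (Pttg1) and the highest 27462 (Mki67), and the SD within a group of 2 libraries was 2.333% of the mean at the median and 12.29% at most (Cdc25c). Ccna2, Cdc20, Ube2c, Cdca8, Kif20a, Kif4, Kif18a and Prc1 each overlap another listed gene on the opposite strand, and since the strand setting is not given in the sources used here their counts could include reads of that neighbour.

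Summed over the 43 genes, the level was 5158 and 5017 CPM in KO pretreated cells at 2 h and 5329 and 5344 CPM at 0 h. In KO naive cells it was 4729 CPM in the 1 library at 2 h and 4709 and 4722 CPM at 0 h. WT pretreated cells had 5070 and 4823 CPM at 2 h and 5026 and 4952 CPM at 0 h, and WT naive cells 3787 and 3757 CPM at 2 h and 4061 and 4043 CPM at 0 h. On this scale every pretreated library stood above every naive library of its genotype. Under plain library totals they overlapped. The KO pretreated 2 h libraries, at 4818 and 4744 CPM, then lay below the KO naive 0 h libraries, at 4962 and 5030 CPM. Likewise WT pretreated 0 h replicate 2, at 4825 CPM, and WT pretreated 2 h replicate 2, at 4317 CPM, lay below WT naive 0 h replicate 1, at 4952 CPM. Within the same time, pretreated libraries still stood above naive ones of their genotype except in WT at 0 h. The overlap there came from WT naive 0 h replicate 1, which had 10.57% of its counts in Rn45s and Lars2. Of the 43 genes, 30 had their lowest group mean in WT naive cells at 2 h and 17 had their highest in KO pretreated cells at 0 h. The highest group mean was 1.272 times the lowest for Tpx2 and 3.496 times for Pttg1, with a median of 1.587 times. In bulk RNA, a larger share of dividing cells and more of these transcripts in each dividing cell cannot be told apart.

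**Figure D1:**
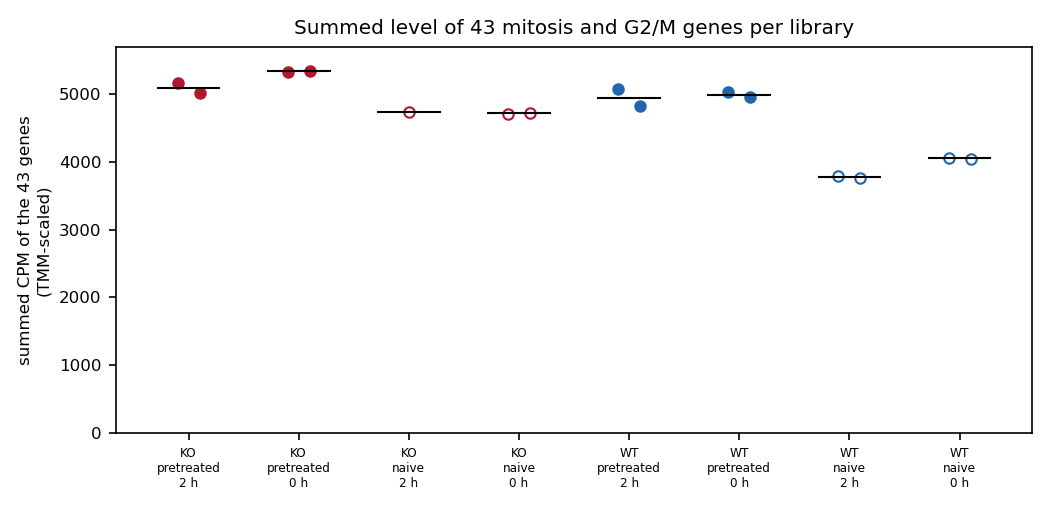
Summed level of the 43 genes in each library (vertical axis, TMM-scaled CPM from 0) by group (horizontal axis). Each circle is 1 library, filled for pretreated and open for naive, red for KO and blue for WT, and the line is the group mean. The WT naive libraries, at 3757 to 4061 CPM, lie below all others.

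The first comparison asked what remained 24 h after a washed-out dose, setting pretreated against naive cells with no new interferon. Washing was described for pretreated cells only, so the dose and the wash cannot be told apart in any comparison of pretreated with naive cells. In WT, 37 of the 43 genes were called higher (edgeR quasi-likelihood test, adjusted p below 0.05) and 0 lower, where 12.6% of all tested genes were called higher and 11.4% lower. The median log2 change of the 43 genes was 0.30, against -0.0036 over all tested genes. In KO, 30 of the 43 were called higher and 0 lower, where the shares of all genes were 11.1% higher and 10.6% lower, and the median log2 change was 0.20. The KO count was 19 without KO naive 0 h replicate 2. The 28 genes called higher in both genotypes compare with 6.79% of all genes called higher in both. Only Ccnb2, Bub3, Plk1 and Spc25 of the 43 were called in neither genotype at 0 h. The changes were small, and scaling by library totals alone, which moved the median of all genes to -0.18 in WT, left 0 of the 43 called in either genotype, with medians of 0.18 in KO and 0.13 in WT. Of all WT calls, 52.4% were higher under TMM and 8.52% under library totals, and of all KO calls 51.2% and 39.1%.

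Of the 6 genes of the Cdk1 and cyclin B engine and its triggers, 4 were called higher in KO and 5 in WT, Ccnb2 and Cdc25c being those not called in KO and Ccnb2 in WT. The WT call of Cdc25c, the phosphatase that switches Cdk1 on, was lost without WT pretreated 0 h replicate 2 or WT naive 0 h replicate 1. Cdk1, the mitotic kinase itself, had 132 and 149 CPM in KO pretreated cells, against 118 and 120.5 CPM in KO naive cells at 0 h. In WT it had 198 and 194 CPM in pretreated cells, against 157 and 161 CPM in naive cells. Neither pair of groups overlapped, and the log2 changes were 0.23 (SE 0.054, edgeR adjusted p = 0.0022) in KO and 0.31 (SE 0.054, edgeR adjusted p = 7.7e-05) in WT, the KO call being lost without KO pretreated 0 h replicate 2. Its partner cyclin B1 (Ccnb1) had 142 and 145 CPM in KO pretreated cells, against 129 and 119.8 CPM in KO naive cells. In WT, Ccnb1 had 143 and 148 CPM in pretreated cells, against 119 and 117 CPM in naive cells, and it was called higher in both genotypes, though not in KO without KO naive 0 h replicate 2. Cyclin A2 (Ccna2) was at 174 and 177 CPM in KO pretreated cells, against 154 and 145 CPM in KO naive cells (log2 0.24, SE 0.044, edgeR adjusted p = 0.00022). Foxm1, the forkhead factor that acts on G2 promoters, had the largest WT change of the 43. It had 108 and 104 CPM in WT pretreated cells, against 77.2 and 74.6 CPM in WT naive cells, which is 1.39 times (log2 0.48, SE 0.048, edgeR adjusted p = 1.4e-08). In KO, Foxm1 had 81.9 and 83.3 CPM in pretreated cells, against 67.9 and 70.5 CPM in naive cells (log2 0.25, SE 0.048, edgeR adjusted p = 0.00023). The cyclin B2 gene Ccnb2 was called in neither genotype. It had 53.1 and 50.5 CPM in KO pretreated cells, against 54.6 and 51.9 CPM in KO naive cells (log2 -0.04, edgeR adjusted p = 0.72), the lowest fitted change of the 43 in KO. In WT, Ccnb2 was slightly higher, at 42.6 and 44.0 CPM in pretreated cells, against 38.6 and 42.5 CPM in naive cells.

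Among the spindle checkpoint genes, 3 of 5 were called higher in KO and 4 of 5 in WT. Ttk, the Mps1 kinase that starts checkpoint signalling, had 30.4 and 31.9 CPM in KO pretreated cells, against 27.1 and 26.8 CPM in KO naive cells, and 24.5 and 25.4 CPM in WT pretreated cells, against 17.8 and 19.1 CPM in WT naive cells. It was called higher in both, though the KO call was lost without KO pretreated 0 h replicate 2 or either KO naive 0 h replicate. Bub3, a checkpoint scaffold that binds the kinetochore, had 89.9 and 97.0 CPM in KO pretreated cells, against 86.7 and 87.2 CPM in KO naive cells (log2 0.10, edgeR adjusted p = 0.15). In WT, Bub3 had 117 and 118 CPM in pretreated cells, against 111 and 108 CPM in naive cells (log2 0.10, edgeR adjusted p = 0.15). The libraries did not overlap in either genotype, yet the difference was too small to pass over all genes. Such a lack of overlap was common: of 13802 tested genes, 3803 in KO and 3912 in WT had both pretreated libraries above both naive ones.

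Of the anaphase genes, Cdc20, the activator of the anaphase-promoting complex, had 112 and 113 CPM in KO pretreated cells, against 108 and 109 CPM in KO naive cells (log2 0.05, edgeR adjusted p = 0.53). In WT it had 109 and 107 CPM in pretreated cells, against 92.1 and 84.0 CPM in naive cells (log2 0.29, SE 0.051, edgeR adjusted p = 9.8e-05). The genotype difference for Cdc20 was -0.24 (SE 0.071, edgeR adjusted p = 0.064) and passed only without WT naive 0 h replicate 1 among the fits that left out a library. Securin (Pttg1), the inhibitor of separase, was called higher in KO (log2 0.20, SE 0.070, edgeR adjusted p = 0.044), a call lost without any 1 of the 4 KO libraries compared, and gave the smallest WT change of the 43, at 10.99 and 11.31 CPM in pretreated cells, against 11.4 and 9.84 CPM in naive cells. Its WT groups overlapped.

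The Aurora kinases and chromosomal passengers, which correct faulty attachments, were called higher for 5 of 6 genes in KO and 6 of 6 in WT. Aurkb, the kinase of the passenger complex, had 57.2 and 55.8 CPM in KO pretreated cells, against 47.8 and 50.3 CPM in KO naive cells, a call lost without either replicate 1 of these groups. In WT, Aurkb had 57.5 and 56.2 CPM in pretreated cells, against 44.5 and 43.6 CPM in naive cells (log2 0.36, SE 0.057, edgeR adjusted p = 1.6e-05). Birc5, or survivin, which brings that complex to the centromere, had 68.6 and 70.8 CPM in KO pretreated cells, against 51.8 and 59.1 CPM in KO naive cells (log2 0.32, SE 0.053, edgeR adjusted p = 4.1e-05). In WT, Birc5 had 78.7 and 77.2 CPM in pretreated cells, against 57.0 and 54.6 CPM in naive cells (log2 0.48, SE 0.054, edgeR adjusted p = 1.1e-07).

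The Polo-like kinases gave split results. Plk4, which starts centriole duplication, had the largest KO change, at 56.1 and 55.9 CPM in KO pretreated cells, against 46.6 and 42.4 CPM in KO naive cells (log2 0.34, SE 0.062, edgeR adjusted p = 0.00018). Plk1, which acts from mitotic entry to cytokinesis, was called in neither genotype. It had 46.7 and 46.3 CPM in KO pretreated cells, against 42.6 and 40.8 CPM in KO naive cells (log2 0.16, edgeR adjusted p = 0.094). In WT, Plk1 had 51.0 and 57.1 CPM in pretreated cells, against 47.9 and 47.2 CPM in naive cells (log2 0.18, edgeR adjusted p = 0.053), and it passed without WT pretreated 0 h replicate 1.

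Spindle motors and spindle proteins were called higher for 5 of 7 genes in KO and 6 of 7 in WT. The centromere and kinetochore group gave 3 of 6 in KO and 5 of 6 in WT. Here Cenpa, the histone H3 variant that marks centromeres, was the only gene of the 43 called for a difference between genotypes in the pretreatment effect at 0 h (1.71% of all genes were called higher and 1.51% lower in that genotype difference). Cenpa had 39.7 and 39.7 CPM in KO pretreated cells, against 40.8 and 39.2 CPM in KO naive cells, and 35.2 and 36.7 CPM in WT pretreated cells, against 29.0 and 28.1 CPM in WT naive cells. The KO libraries overlapped and the WT ones did not, and the difference, KO minus WT, was -0.34 on the log2 scale (SE 0.080, edgeR adjusted p = 0.013). That call was lost without KO naive 0 h replicate 1 or without WT pretreated 0 h replicate 2. Of the 43 fitted differences, KO minus WT, 38 were below 0 and 5 above, with a median of -0.11. Over all tested genes 6868 were below 0 and 6934 above, with a median of 0.0014. Under library totals alone 0 of the 43 were called, and the median of this difference over all genes was 0.16. The median change of the 43 genes under that scaling, given above, was larger in KO than in WT. The direction over the 43 genes thus rested on the scaling.

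Both chromosome structure genes were called higher in each genotype, as were 3 of 4 cytokinesis genes in KO and 4 of 4 in WT. The cytokinesis gene not called in KO was Racgap1 (log2 0.11, SE 0.041, edgeR adjusted p = 0.054). Top2a, the topoisomerase that untangles sister chromatids, had 709.5 and 741 CPM in KO pretreated cells, against 631 and 626 CPM in KO naive cells, and 588 and 583 CPM in WT pretreated cells, against 483 and 490.4 CPM in WT naive cells. The log2 changes were 0.21 (SE 0.043, edgeR adjusted p = 7e-04) in KO and 0.27 (SE 0.043, edgeR adjusted p = 2.8e-05) in WT. Mki67, the Ki-67 protein that coats mitotic chromosomes, had 693 and 654 CPM in KO pretreated cells, against 587 and 617 CPM in KO naive cells (log2 0.16, SE 0.043, edgeR adjusted p = 0.0062), a call lost without either replicate 1. In WT, Mki67 had 693 and 678 CPM in pretreated cells, against 541 and 526 CPM in naive cells (log2 0.36, SE 0.043, edgeR adjusted p = 2.5e-07). Anln, the anillin scaffold of the contractile ring, had 336 and 334 CPM in KO pretreated cells, against 280.5 and 278 CPM in KO naive cells, and 266 and 266 CPM in WT pretreated cells, against 206 and 208 CPM in WT naive cells. It had the smallest p of the 43 in KO (log2 0.26, SE 0.039, edgeR adjusted p = 9.7e-06) and the second smallest in WT (log2 0.36, SE 0.040, edgeR adjusted p = 7.3e-08).

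Beyond the 43, other cell cycle lists gave the following counts at 0 h. Of 65 other mitotic genes tested, 31 were called higher and 0 lower in KO pretreated cells and 54 higher and 1 lower in WT pretreated cells. Fbxo5 (Emi1), an inhibitor of the anaphase-promoting complex, changed by 0.43 (SE 0.058, edgeR adjusted p = 2.5e-06) in KO. The condensin genes Smc2 and Ncapg2 were called higher in both genotypes, at log2 0.29 for each in KO and at 0.37 and 0.44 in WT, and the spindle motor gene Kif15 changed by 0.48 in WT. DNA replication and G1/S genes gave 37 of 44 called higher in KO and 41 of 44 in WT, with 0 lower in either. Rrm2, a ribonucleotide reductase subunit, changed by 0.42 in KO and 0.55 in WT, and Mcm10, a replication initiation factor, by 0.46 in KO and 0.63 in WT. Ccne2 (cyclin E2) changed by 0.74 in KO and the origin licensing factor Cdc6 by 0.78 in WT. Of 20 MuvB and E2F regulators, 8 were called higher and 1 lower in KO and 9 higher and 1 lower in WT. Mybl2, the B-Myb partner of MuvB, changed by 0.33 (SE 0.059, edgeR adjusted p = 0.00012) in KO and by 0.72 (SE 0.061, edgeR adjusted p = 6.4e-10) in WT, and the difference, KO minus WT, was -0.39 (SE 0.085, edgeR adjusted p = 0.0069). E2f7, a repressor of the same family, changed by 0.48 in KO and 0.65 in WT, the MuvB subunit Lin9 by 0.37 in KO, and the pocket protein Rbl1 by 0.40 in WT.

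Calls in the list of Cdk inhibitors and p53 targets were mostly in the other direction. Of 17 Cdk inhibitors and p53 targets tested, 1 was called higher and 7 lower in KO, and 1 higher and 9 lower in WT. Trp53inp1, a stress-induced p53 partner, was at 0.6097 times in KO pretreated cells (log2 -0.71, SE 0.061, edgeR adjusted p = 4.1e-10) and at 0.5178 times in WT pretreated cells (log2 -0.95, SE 0.063, edgeR adjusted p = 6e-12). Cdkn1b, the p27 inhibitor, and Sesn2, a stress-response sestrin, changed by -0.29 and -0.33 in KO, and Gadd45a and Btg2, which restrain growth after damage, by -0.79 and -0.68 in WT. The list of G1 cyclins and Cdks, which also held Myc and Skp2, gave 3 of 8 higher and 1 lower in KO and 6 of 8 higher and 1 lower in WT. Myc, a growth regulator, changed by 0.42 in KO and 0.39 in WT, the p27-degrading ligase subunit Skp2 by 0.30 and Cdk6 by 0.30 in KO, and the D-type cyclins Ccnd1 by 0.32 and Ccnd3 by 0.30 in WT. Subunits of the anaphase-promoting complex, which are made throughout the cycle, gave 0 of 14 called in KO and 1 of 14 higher in WT (Ube2s, a ubiquitin-conjugating partner, log2 0.22, SE 0.046, edgeR adjusted p = 5e-04). Cohesin genes gave 1 of 9 higher in KO (Smc3, log2 0.14, SE 0.043, edgeR adjusted p = 0.018) and 4 of 9 in WT. Fibroblast markers moved as well, with 2 of 10 higher and 6 lower in KO and 1 of 10 higher and 5 lower in WT. Their sum was 12110 to 12510 CPM in KO pretreated cells, against 12700 to 13090 CPM in KO naive cells, and 13790 to 13850 CPM in WT pretreated cells, against 16120 to 16650 CPM in WT naive cells, and their part in the results on mitotic genes was not tested.

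Pretreated and naive cells were next compared 2 h after interferon. In WT, all 43 genes were called higher, where 13.2% of all genes were called higher and 11.8% lower, and their median log2 change was 0.37. Under library totals alone, 26 of them were called higher, and 36 without WT pretreated 2 h replicate 1. Ect2, the exchange factor that switches on RhoA for cytokinesis, had the largest change, at 65.8 and 61.1 CPM in WT pretreated cells, against 37.6 and 36.4 CPM in WT naive cells, or 1.71 times (log2 0.78, SE 0.068, edgeR adjusted p = 3.6e-10). Cenpe, the kinetochore motor that brings chromosomes to the spindle equator, had 164 and 164 CPM in WT pretreated cells, against 106 and 109.6 CPM in WT naive cells (log2 0.60, SE 0.045, edgeR adjusted p = 1.2e-11). The spindle midzone motor gene Kif4 had 115 and 112 CPM in WT pretreated cells, against 81.6 and 80.5 CPM in WT naive cells (log2 0.48, SE 0.045, edgeR adjusted p = 1.5e-09). Anln had 302 and 289.6 CPM in WT pretreated cells, against 214 and 214 CPM in WT naive cells (log2 0.47, SE 0.040, edgeR adjusted p = 2.9e-10). The smallest change was that of Bub3 (log2 0.13, SE 0.049, edgeR adjusted p = 0.05, just inside the threshold), at 133 and 125 CPM in WT pretreated cells, against 118 and 117 CPM in WT naive cells. That call was lost without WT pretreated 2 h replicate 1 and without either WT naive 2 h replicate.

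In KO at 2 h, where the naive group was 1 library, 13 of the 43 genes were called higher and 1 lower, with 11.2% of all genes called higher and 7.61% lower and a median log2 change of 0.11. The count was 7 without KO pretreated 2 h replicate 1 and 0 under library totals alone. Plk1 changed most, at 51.9 and 45.0 CPM in KO pretreated cells, against 34.6 CPM in the KO naive library (log2 0.49, SE 0.089, edgeR adjusted p = 2e-04). Foxm1 had 82.9 and 78.1 CPM in KO pretreated cells, against 59.4 CPM in the KO naive library (log2 0.44, SE 0.062, edgeR adjusted p = 6.2e-06). Separase (Espl1), the protease that cuts cohesin, had 77.2 and 73.9 CPM in KO pretreated cells, against 56.2 CPM in the KO naive library (log2 0.43, SE 0.071, edgeR adjusted p = 5.9e-05). Cenpe had 243 and 239 CPM in KO pretreated cells, against 184 CPM in the KO naive library (log2 0.39, SE 0.053, edgeR adjusted p = 4e-06). Spc25, a subunit of the Ndc80 kinetochore complex, was the gene called lower, at 25.5 and 27.7 CPM in KO pretreated cells, against 32.0 CPM in the KO naive library (log2 -0.27, SE 0.079, edgeR adjusted p = 0.014), a call lost without KO pretreated 2 h replicate 1.

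Across these 4 comparisons, which share no library, Foxm1, Espl1, Aurka, Aurkb, Birc5, Incenp, Kif4 and Cenpe were called higher every time. Those 8 of 43 genes compare with 2.54% of all genes. Aurka is the Aurora kinase of the centrosome and Incenp the scaffold of the passenger complex, so 4 of the 8 genes belong to the Aurora and passenger group of 6. The calls of Foxm1 and Birc5 were kept in every fit that left out 1 library. Aurka, Aurkb, Espl1, Incenp and Cenpe lost the KO call at 0 h in some, for which KO naive 0 h replicate 1 (Aurkb, Espl1, Incenp, Cenpe) or KO naive 0 h replicate 2 (Aurka) was enough, and Kif4 and Incenp lost the KO call at 2 h without KO pretreated 2 h replicate 1. Incenp also lost the WT call at 2 h without WT pretreated 2 h replicate 1. No gene of the 43 was called lower in all 4.

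**Figure D2:**
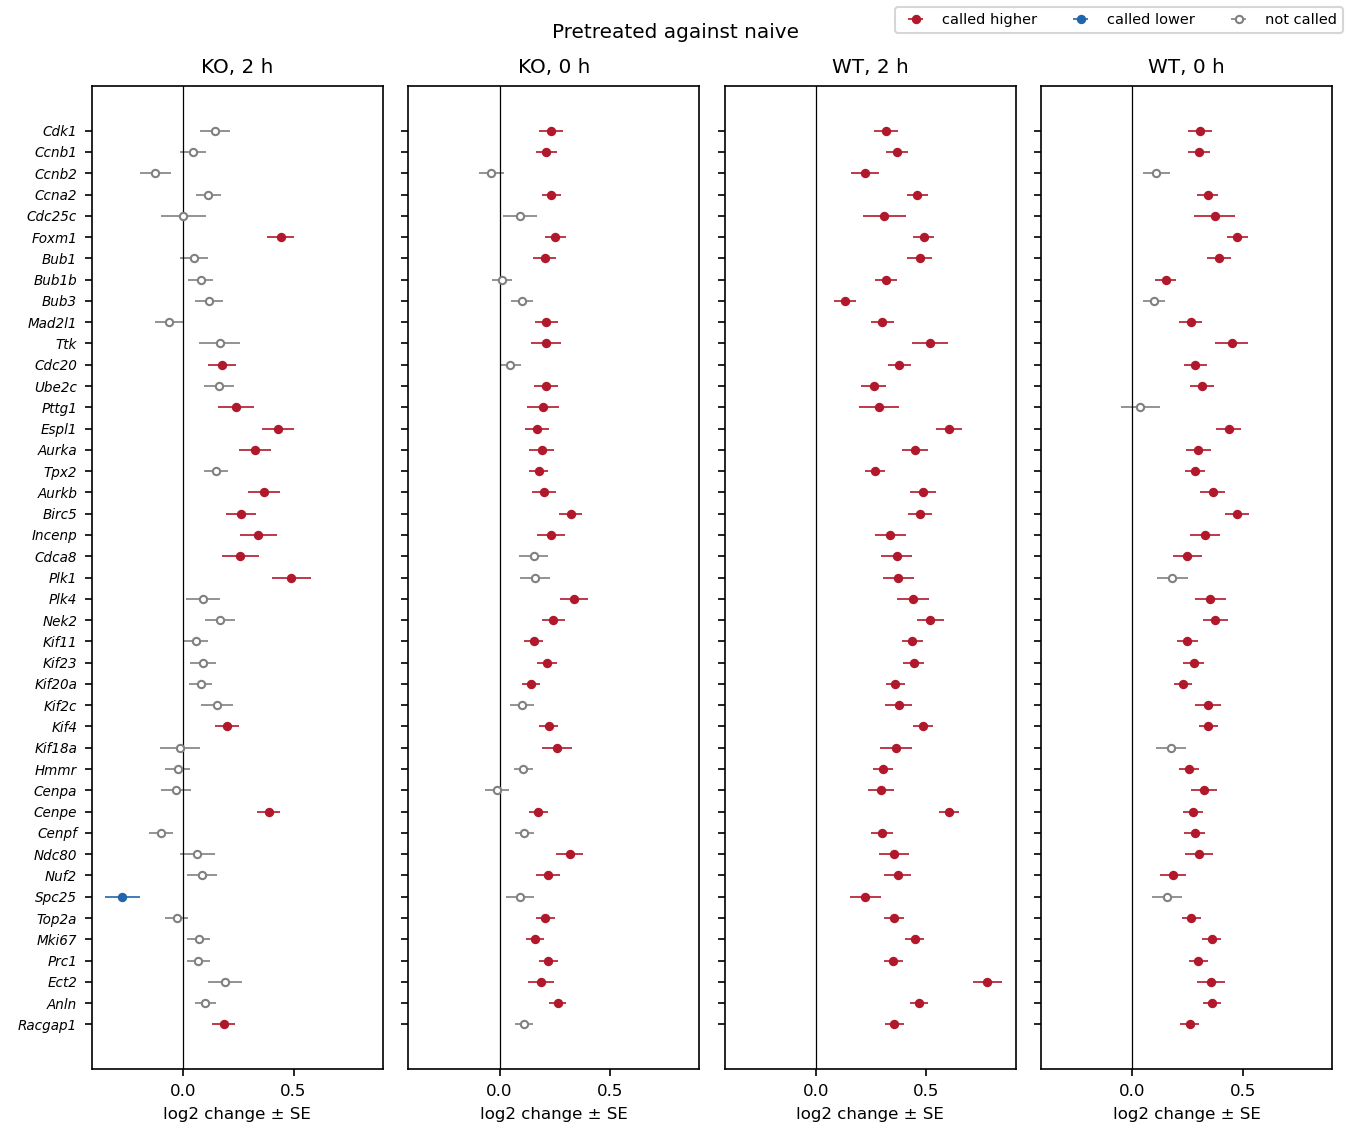
Fitted log2 change of each of the 43 genes in pretreated against naive cells, with bars for ±1 SE, in KO at 2 h and 0 h and in WT at 2 h and 0 h. Red points were called higher, blue lower and open grey points were not called (edgeR adjusted p below 0.05). In WT at 2 h all 43 points are red, while in KO at 2 h 13 are red and 1, Spc25, is blue.

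The acute effect of interferon was read as 2 h against 0 h. In KO naive cells, resting on 1 library at 2 h, 6 of the 43 genes were called higher and 13 lower, with 19.1% of all genes called higher and 17.2% lower and a median log2 change of -0.01. In WT naive cells 0 were called higher and 22 lower, where 15% of all genes were called higher and 15.6% lower, and the median was -0.15. The WT naive count fell to 11 without WT naive 0 h replicate 1, with DESeq2 it was 14, and KO naive calls under library totals alone were 0 higher and 11 lower. In KO pretreated cells 2 genes were called higher and 17 lower, with 17.9% of all genes called higher and 13.6% lower and a median of -0.11, and 2 higher and 8 lower without KO pretreated 2 h replicate 2. In WT pretreated cells 3 were called higher and 9 lower, shares of all genes being 12.2% higher and 10.5% lower and the median -0.03. That WT pretreated count was 0 under library totals alone, 5 without WT pretreated 2 h replicate 1, and 6 without WT pretreated 0 h replicate 1 or WT pretreated 2 h replicate 2. Over all genes, library totals took the share of calls that were higher to 32.9% from 56.9% under TMM in KO pretreated cells, and in naive cells to 22% from 52.6% (KO) and to 10.6% from 48.9% (WT).

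The genes that were lower at 2 h in all 4 comparisons, which again share no library, were Bub1b, Ttk, Kif20a, Kif18a and Cenpf. Those 5 of 43 compare with 3.86% of all genes. Kif18a, the motor that shortens kinetochore microtubules, had 24.9 and 28.6 CPM at 2 h, against 39.0 and 37.8 CPM at 0 h, in KO pretreated cells (log2 -0.53, SE 0.067, edgeR adjusted p = 1.8e-07). Kif18a in KO naive cells had 26.9 CPM at 2 h, against 34.1 and 30.4 CPM at 0 h, and in WT pretreated cells 32.1 and 34.0 CPM at 2 h, against 39.6 and 39.3 CPM at 0 h. In WT naive cells it had 25.2 and 26.2 CPM at 2 h, against 34.2 and 36.0 CPM at 0 h, or 0.734 times (log2 -0.45, SE 0.072, edgeR adjusted p = 1.3e-05). Every 2 h library of Kif18a was lower than every 0 h library of its own genotype and state, although the WT pretreated call was lost without WT pretreated 0 h replicate 1 or WT pretreated 2 h replicate 1.

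Ttk had 23.4 and 24.4 CPM at 2 h, against 30.4 and 31.9 CPM at 0 h, in KO pretreated cells (log2 -0.39, SE 0.068, edgeR adjusted p = 3.8e-05). Ttk in KO naive cells had 21.3 CPM at 2 h, against 27.1 and 26.8 CPM at 0 h. In WT pretreated cells Ttk had 21.0 and 18.8 CPM at 2 h, against 24.5 and 25.4 CPM at 0 h (log2 -0.32, SE 0.075, edgeR adjusted p = 0.0017), and in WT naive cells 14.6 and 13.1 CPM at 2 h, against 17.8 and 19.1 CPM at 0 h. The 4 log2 changes of Ttk lay between -0.32 and -0.39. Cenpf, a large outer kinetochore protein, had 127 and 131 CPM at 2 h, against 169 and 164 CPM at 0 h, in KO pretreated cells (log2 -0.37, SE 0.045, edgeR adjusted p = 9.1e-08). It had 98.5 and 102 CPM at 2 h, against 120.1 and 115 CPM at 0 h, in WT pretreated cells (log2 -0.23, SE 0.047, edgeR adjusted p = 5e-04). Kif20a, a motor of the spindle midzone, changed by -0.24 in KO pretreated cells (SE 0.041, edgeR adjusted p = 1.6e-05), and the checkpoint kinase BubR1 (Bub1b) by -0.30 in WT naive cells (SE 0.049, edgeR adjusted p = 1.6e-05). Ttk kept all 4 of its calls without any 1 library. Bub1b and Kif20a lost the WT pretreated call without either 2 h replicate or without WT pretreated 0 h replicate 1. Bub1b lost the KO pretreated call without KO pretreated 0 h replicate 1 or KO pretreated 2 h replicate 2, and the KO naive calls of Kif18a and Cenpf were lost without KO naive 0 h replicate 1 and replicate 2 in that order.

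Further genes were called lower in some of the 4 comparisons, with no test between pretreated and naive cells. Espl1 had 56.2 CPM at 2 h, against 73.2 and 73.0 CPM at 0 h, in KO naive cells (log2 -0.38, SE 0.071, edgeR adjusted p = 8.9e-05) and 52.1 and 51.5 CPM at 2 h, against 67.6 and 63.2 CPM at 0 h, in WT naive cells (log2 -0.34, SE 0.059, edgeR adjusted p = 3.2e-05). In WT pretreated cells Espl1 changed by -0.18 (SE 0.055, edgeR adjusted p = 0.018), a call lost without WT pretreated 0 h replicate 1 or WT pretreated 2 h replicate 2. Ect2 had 37.6 and 36.4 CPM at 2 h, against 52.1 and 45.2 CPM at 0 h, in WT naive cells (log2 -0.41, SE 0.068, edgeR adjusted p = 1.9e-05). The KO naive lower calls with the smallest p after Espl1 were those of Racgap1, the partner of Kif23 in the centralspindlin complex (log2 -0.24), Cdc20 (log2 -0.29) and Aurka (log2 -0.30). Cdk1, Ccnb2, Cdc25c, Bub1, Ube2c, Tpx2, Birc5, Kif23, Kif4 and Cenpa were called in none of the 4 comparisons. For Cdk1, the 2 h levels were 141 and 138 CPM in KO pretreated cells, 126 CPM in KO naive cells, 226 and 198 CPM in WT pretreated cells and 174 and 166 CPM in WT naive cells. The log2 changes of Cdk1 against the 0 h levels given above were between -0.01 and 0.11. Of the 65 other mitotic genes, 3 were called higher and 27 lower at 2 h in KO pretreated cells, 6 and 19 in KO naive cells, 2 and 20 in WT pretreated cells and 2 and 35 in WT naive cells. Of the 44 replication and G1/S genes, 3 were called higher and 6 lower in KO pretreated cells, 9 and 6 in KO naive cells, 2 and 2 in WT pretreated cells and 4 and 5 in WT naive cells.

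**Figure D3:**
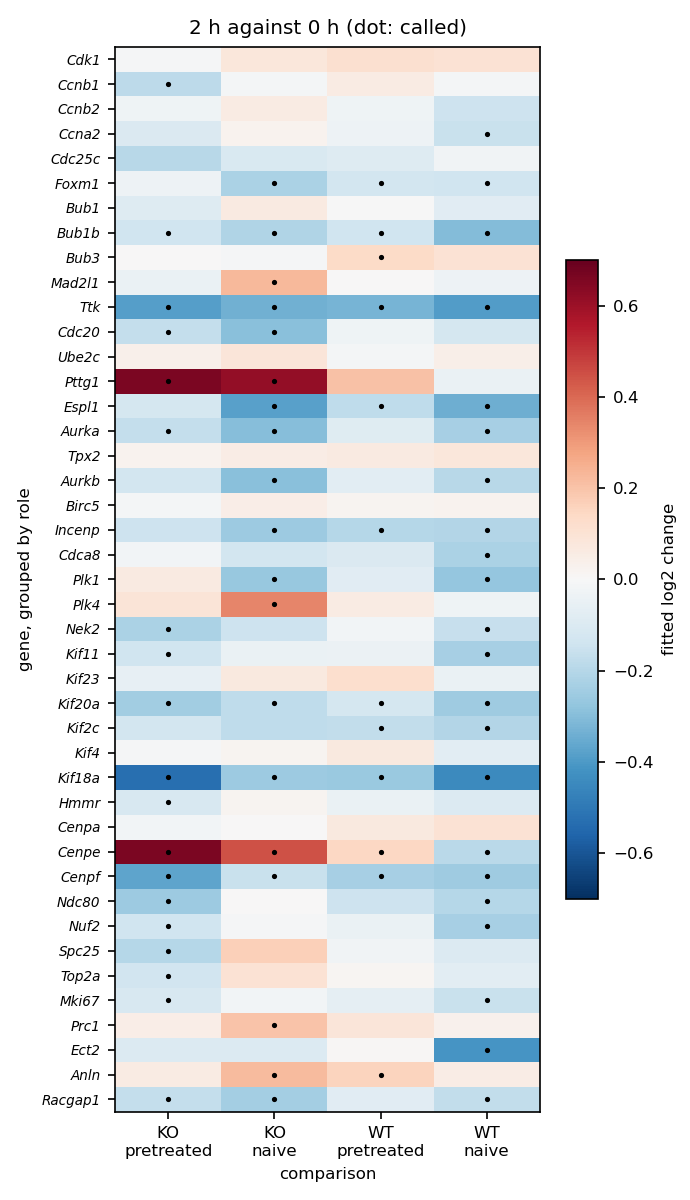
Fitted log2 change of each of the 43 genes at 2 h against 0 h of interferon (colour scale, red higher and blue lower at 2 h) in KO pretreated, KO naive, WT pretreated and WT naive cells. A dot marks an edgeR adjusted p below 0.05. The rows of Ttk, Kif18a and Cenpf are blue throughout, while Cenpe and Pttg1 are red in KO.

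The genes called higher at 2 h were Cenpe and Pttg1 in KO pretreated cells, Cenpe, Pttg1, Anln, Plk4, Prc1 and Mad2l1 in KO naive cells, and Cenpe, Anln and Bub3 in WT pretreated cells. Anln was at log2 0.22 (SE 0.048, edgeR adjusted p = 0.00057) in KO naive cells and 0.15 (SE 0.040, edgeR adjusted p = 0.0044) in WT pretreated cells. Prc1, which bundles midzone microtubules, was at 0.20 (SE 0.053, edgeR adjusted p = 0.0036) in KO naive cells. The WT pretreated calls of Anln and Bub3 were lost without WT pretreated 2 h replicate 1 and the KO naive call of Mad2l1 without KO naive 0 h replicate 2. Cenpe had 243 and 239 CPM at 2 h, against 154 and 152 CPM at 0 h, in KO pretreated cells, which is 1.58 times (log2 0.66, SE 0.042, edgeR adjusted p = 7e-14). In KO naive cells Cenpe had 184 CPM at 2 h, against 132 and 138 CPM at 0 h (log2 0.45, SE 0.052, edgeR adjusted p = 4.7e-08). In WT pretreated cells it had 164 and 164 CPM at 2 h, against 153 and 144 CPM at 0 h (log2 0.14, SE 0.044, edgeR adjusted p = 0.017), and this call was lost without either WT pretreated 2 h replicate or without WT pretreated 0 h replicate 2. In WT naive cells Cenpe was lower, at 106 and 109.6 CPM at 2 h, against 120.2 and 126 CPM at 0 h (log2 -0.19, SE 0.045, edgeR adjusted p = 0.0019). Cenpe was the only gene of the 43 with calls in both directions over these 4 comparisons.

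Securin (Pttg1) had 36.9 and 36.4 CPM at 2 h, against 23.1 and 23.4 CPM at 0 h, in KO pretreated cells (log2 0.66, SE 0.066, edgeR adjusted p = 1.9e-09). In KO naive cells it had 31.1 CPM at 2 h, against 20.2 and 20.3 CPM at 0 h (log2 0.62, SE 0.085, edgeR adjusted p = 8.9e-07). In WT pretreated cells Pttg1 had 13.1 and 12.6 CPM at 2 h, against 10.99 and 11.31 CPM at 0 h (log2 0.20, SE 0.088, edgeR adjusted p = 0.098), and in WT naive cells 10.9 and 10.0 CPM at 2 h, against 11.4 and 9.84 CPM at 0 h (log2 -0.05, edgeR adjusted p = 0.75). The KO libraries at 2 h and 0 h were well apart and the WT naive ones overlapped. Under library totals alone the KO naive changes were 0.23 for Cenpe (adjusted p = 0.28) and 0.40 for Pttg1 (adjusted p = 0.065), and both KO pretreated calls held.

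The effect of 2 h of interferon differed between genotypes for few of the 43 genes. In naive cells 5 genes had a KO effect above the WT effect and 0 below it, with 8.46% of all genes above and 6.85% below. The differences, KO minus WT, were 0.63 for Cenpe (SE 0.069, edgeR adjusted p = 4.3e-08), 0.66 for Pttg1 (SE 0.124, edgeR adjusted p = 0.00025), 0.37 for Plk4 (SE 0.106, edgeR adjusted p = 0.015), 0.26 for Mad2l1, a checkpoint protein that blocks Cdc20 (SE 0.083, edgeR adjusted p = 0.031), and 0.32 for Ect2 (SE 0.102, edgeR adjusted p = 0.032). In pretreated cells 2 were above and 1 below, with 6.53% of all genes above and 2.51% below. These were Cenpe at 0.52 (SE 0.061, edgeR adjusted p = 2.4e-07), Pttg1 at 0.45 (SE 0.110, edgeR adjusted p = 0.0059) and Ccnb1 at -0.24 (SE 0.069, edgeR adjusted p = 0.023). The Cenpe and Pttg1 calls were kept in every fit that left out 1 library. Those of Plk4, Mad2l1, Ect2 and Ccnb1 were each lost in several such fits, among them the one without KO naive 0 h replicate 2 for Plk4, Mad2l1 and Ect2 and the one without WT pretreated 2 h replicate 1 for Ccnb1. Under library totals alone 1 of the 43 was called for a naive difference and 0 for a pretreated one. The naive difference of Cenpe held (0.66, adjusted p = 0.027), while that of Pttg1 (0.70, adjusted p = 0.056) and the pretreated differences of Cenpe (0.40, adjusted p = 0.41) and Pttg1 (0.33, adjusted p = 0.73) were not called.

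**Figure D4:**
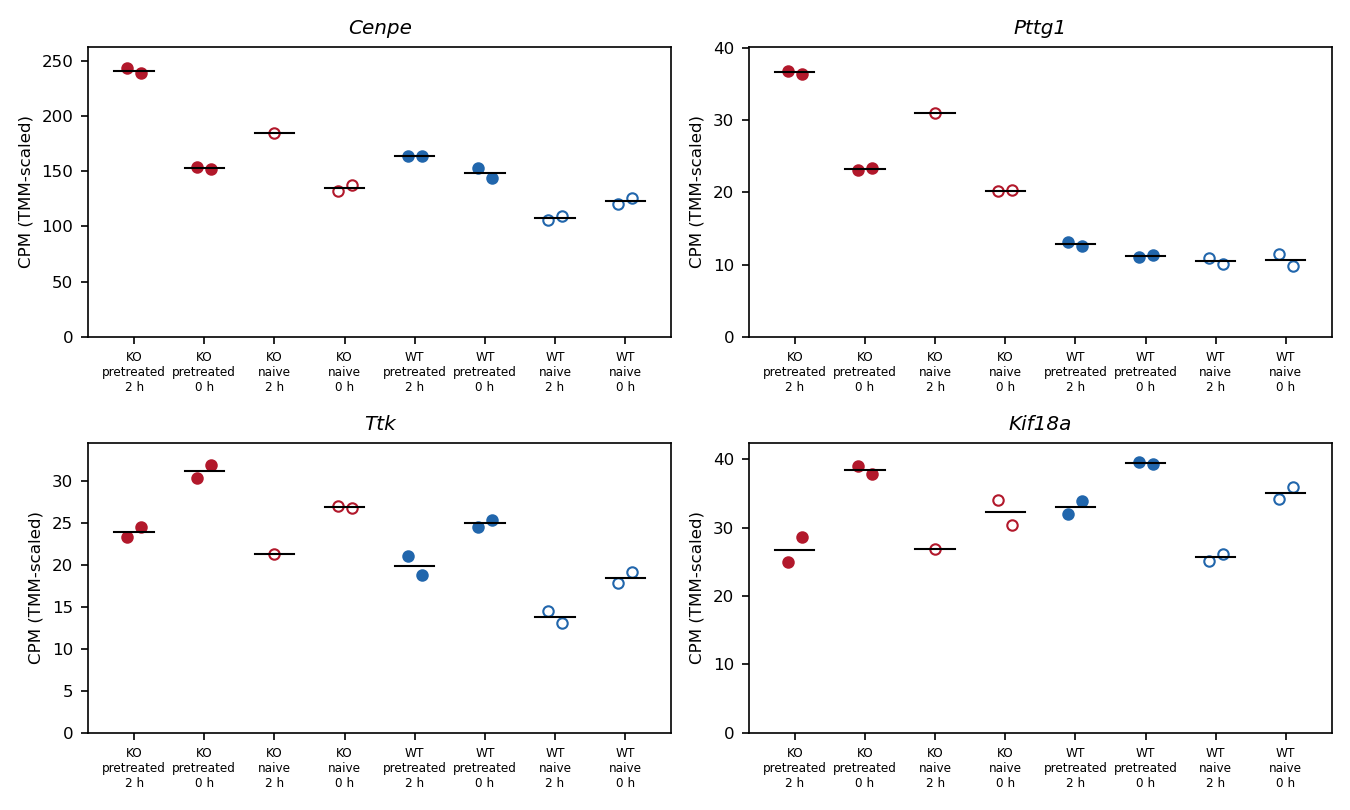
Levels of Cenpe, Pttg1, Ttk and Kif18a (vertical axes, TMM-scaled CPM from 0) in each library by group. Each circle is 1 library, filled for pretreated and open for naive, red for KO and blue for WT, with a line at the group mean. Cenpe and Pttg1 are higher at 2 h than at 0 h in KO, while Ttk and Kif18a are lower at 2 h in each genotype and state.

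KO and WT cells were compared last, in each of the 4 conditions, where 28.8% to 35.6% of all genes were called in each direction. At pretreated 2 h, 19 of the 43 genes were called higher and 11 lower in KO, with 35.6% of all genes higher and 30.7% lower. At pretreated 0 h 20 were higher and 10 lower, with 32.8% and 31.8% of all genes. At naive 2 h, where KO was 1 library, 26 were higher and 4 lower, with 32.3% and 28.8% of all genes. At naive 0 h 29 were higher and 6 lower, with 34.3% and 32.7% of all genes. Under plain library totals the counts were smaller, at 8 higher and 8 lower (pretreated 2 h), 16 and 2 (pretreated 0 h), 17 and 2 (naive 2 h) and 17 and 3 (naive 0 h). The TMM medians of the 43 log2 changes were 0.05, 0.07, 0.31 and 0.17 in that order. In all 4 conditions 17 genes were called higher in KO, where 22.9% of all genes were, and 4 genes were called lower in KO, where 20.8% of all genes were.

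The genes called higher in KO throughout were Ccnb2, Ccna2, Cdc25c, Bub1, Bub1b, Ttk, Pttg1, Incenp, Plk4, Nek2, Kif11, Cenpf, Nuf2, Spc25, Top2a, Ect2 and Anln. At pretreated 2 h the calls of Bub1, Ttk, Incenp and Top2a were lost without WT pretreated 2 h replicate 2. That of Spc25 was lost without WT pretreated 2 h replicate 1 or KO pretreated 2 h replicate 2, and those of Bub1 and Incenp also without KO pretreated 2 h replicate 1. Incenp lost its pretreated 0 h call without KO pretreated 0 h replicate 1 or WT pretreated 0 h replicate 2, and its naive 2 h call without either WT library. Pttg1 led in 3 of the 4 conditions, at 2.85 times at pretreated 2 h (log2 1.51, SE 0.074, edgeR adjusted p = 4.2e-17), 2.08 times at pretreated 0 h (log2 1.06, SE 0.079) and 2.94 times at naive 2 h (log2 1.56, SE 0.094). At naive 0 h its change was 0.90 and the largest was that of Cdc25c, at 22.0 and 21.1 CPM in KO, against 11.3 and 11.5 CPM in WT (log2 0.92, SE 0.087, edgeR adjusted p = 1.4e-10). Ccna2 had 154 and 145 CPM in KO naive cells, against 99.3 and 97.2 CPM in WT naive cells at 0 h (log2 0.60, SE 0.046, edgeR adjusted p = 1.8e-12). Bub1b had 145 and 142 CPM in KO naive cells, against 86.5 and 88.4 CPM in WT naive cells at 0 h (log2 0.72, SE 0.047, edgeR adjusted p = 3.7e-14). Cenpf had 148 and 159 CPM in KO naive cells, against 98.7 and 93.8 CPM in WT naive cells at 0 h (log2 0.67, SE 0.046, edgeR adjusted p = 1.5e-13). Cenpe was called higher in KO in 3 conditions (not at naive 0 h without WT naive 0 h replicate 1 or KO naive 0 h replicate 2) and was close in both genotypes at pretreated 0 h, with 154 and 152 CPM in KO, against 153 and 144 CPM in WT (log2 0.04, edgeR adjusted p = 0.42).

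Cdk1, Foxm1, Bub3 and Mad2l1 were called lower in KO throughout. Cdk1 had 141 and 138 CPM in KO cells, against 226 and 198 CPM in WT cells at pretreated 2 h (log2 -0.60, SE 0.053, edgeR adjusted p = 3.8e-11). At naive 0 h Cdk1 had 118 and 120.5 CPM in KO, against 157 and 161 CPM in WT (log2 -0.41, SE 0.054, edgeR adjusted p = 1.2e-07). Its cyclin partners did not follow it: Ccna2 and Ccnb2 were higher in KO and Ccnb1 was called, lower, only at pretreated 2 h (log2 -0.25, SE 0.049, edgeR adjusted p = 4e-05). Mad2l1 had 60.3 and 61.0 CPM in KO, against 91.4 and 83.6 CPM in WT at pretreated 2 h (log2 -0.53, SE 0.051, edgeR adjusted p = 2.3e-10), and 55.9 and 52.7 CPM in KO, against 72.3 and 73.8 CPM in WT at naive 0 h (log2 -0.43, SE 0.052, edgeR adjusted p = 2.4e-08). Bub3 had 86.3 CPM in the KO library, against 118 and 117 CPM in WT at naive 2 h (log2 -0.45, SE 0.063, edgeR adjusted p = 4e-07), the lowest change of the 43 there. Foxm1 had 81.9 and 83.3 CPM in KO, against 108 and 104 CPM in WT at pretreated 0 h (log2 -0.36, SE 0.047, edgeR adjusted p = 1.1e-07). The naive 0 h call of Foxm1 was lost without WT naive 0 h replicate 1 or KO naive 0 h replicate 1, and the naive 2 h call of Mad2l1 without either WT library. Hmmr, a spindle-assembly protein, was called lower in KO in 3 conditions (log2 -0.34 at pretreated 2 h, SE 0.045, edgeR adjusted p = 9.1e-08), its naive 0 h call being lost without WT naive 0 h replicate 2 or KO naive 0 h replicate 1. Plk1 was at 42.6 and 40.8 CPM in KO, against 47.9 and 47.2 CPM in WT at naive 0 h (log2 -0.20, SE 0.069, edgeR adjusted p = 0.014), a call lost without WT naive 0 h replicate 1 or KO naive 0 h replicate 2.

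**Figure D5:**
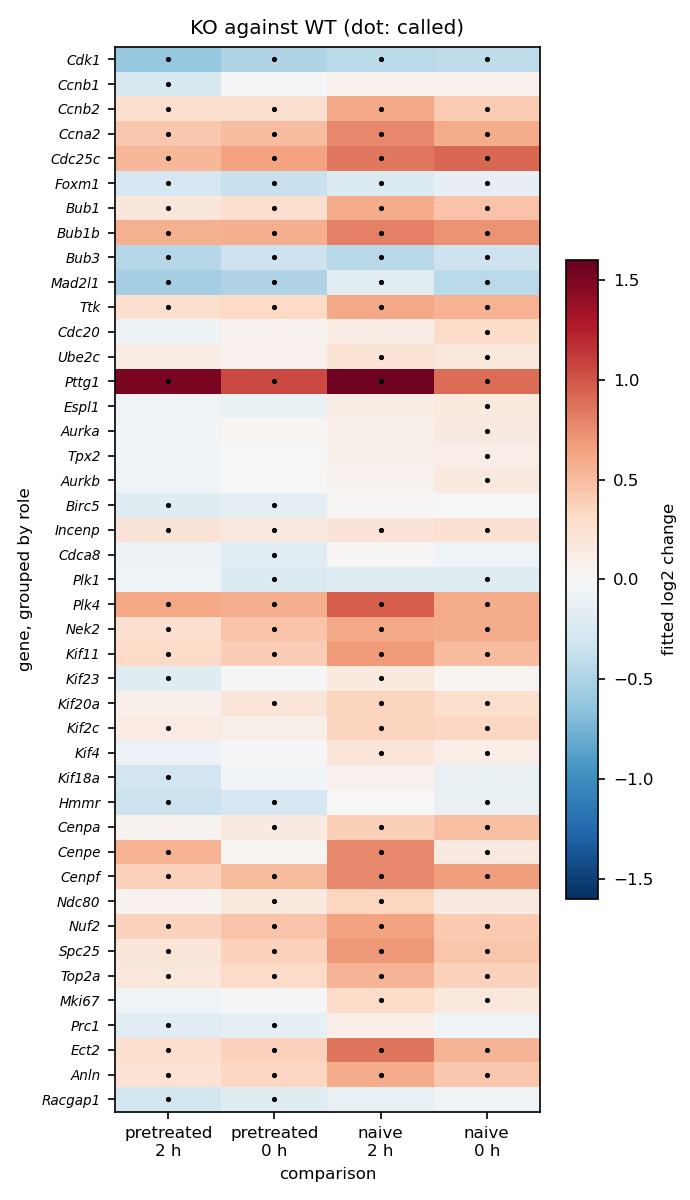
Fitted log2 change of each of the 43 genes in KO against WT cells (colour scale, red higher and blue lower in KO) at pretreated 2 h, pretreated 0 h, naive 2 h and naive 0 h. A dot marks an edgeR adjusted p below 0.05. Pttg1 is the darkest red row in 3 columns, and Cdk1, Foxm1, Bub3 and Mad2l1 are blue in all 4.

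Some roles held calls in both directions and others did not. Of the 6 centromere and kinetochore genes, 4, 5, 6 and 5 were called higher in KO at pretreated 2 h, pretreated 0 h, naive 2 h and naive 0 h, and 0 were called lower in any of these. The anaphase and chromosome structure genes likewise had 0 called lower in KO. Of the 5 checkpoint genes, Bub1, Bub1b and Ttk were higher and Bub3 and Mad2l1 lower in KO in all 4 conditions. Kif23, a centralspindlin motor, was called in both directions, lower in KO at pretreated 2 h, with 77.0 and 77.0 CPM in KO, against 89.5 and 86.6 CPM in WT (log2 -0.19, SE 0.046, edgeR adjusted p = 0.00049), and higher at naive 2 h, with 72.3 CPM in the KO library, against 63.3 and 66.5 CPM in WT (log2 0.16, SE 0.059, edgeR adjusted p = 0.021), a call lost without WT naive 2 h replicate 1. With the genotypes' fibroblast markers as far apart as given above, differences tied to NSD2 and differences between the fibroblast populations cannot be told apart.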

How the data were processed

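Paired-end HiSeq2000 sequencing followed TRIzol extraction and NuGEN Ovation SP Ultralow library preparation, per the labels' protocols. The authors deposited 1 table of raw read counts for each library, with genes listed by symbol. The tools named were bcl2fastq 2.15, STAR 2.5.2b and HTSeq with the mm9 build, per the submitters' processing notes. The annotation release was not given in the sources used here, nor was the strand setting. The 5 HTSeq summary lines were dropped before scaling and testing, and reads outside genes were 35.1% to 41.3%, and ambiguous reads 0.3932% to 0.4959%, of the uniquely aligned reads.

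Genes were kept with filterByExpr (minimum count 10) and scaled by TMM, which trims genes of extreme abundance or change before the scaling factor is taken. A quasi-likelihood model of the 8 groups over 15 libraries (7 residual degrees of freedom, edgeR 4.0.16, R 4.3.3) gave 15 comparisons, with Benjamini-Hochberg adjustment over all tested genes and a threshold of 0.05. The 1 KO naive 2 h library was assumed to vary like the others. SEs were the log2 change over the square root of F. The same steps were also run on simulated counts, with spreads taken from the fit. No difference between libraries in the share of Rn45s and Lars2 was set there, so that run could not test the scaling. DESeq2 1.42.0, other scalings, other filters and fits without each replicate were alternatives. Every replicate pair differed by more than counting noise, with a chi-square over its degrees of freedom of 3.608 to 167.5 (1.932 to 4.814 leaving out Rn45s and Lars2).

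All 43 genes were counted. Library values were given for 9 fixed genes at 0 h, and at 2 h for some of them. Per comparison, library values or log2 changes were given for up to 4 called genes of smallest p in each direction and the largest and smallest change. The same was done for every gene called in a genotype difference, besides genes called in all comparisons of a kind. From other lists, up to 3 called genes of smallest p were named for the 0 h pretreatment comparisons. Cdc25c, Ccna2 and Ccnb2 beside Cdk1, and Kif23, Pdgfra and Dcn, were chosen after their values were seen, as was Cenpe for the promoter sequences. The 43 genes and the lists were chosen with earlier results of these data known. Promoter windows and sequences came from RefSeq (GRCm38.p6), and gene overlaps from GENCODE vM21, used for names only.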

Additional observations from a re-analysis of the deposited data

Results flagged for a closer look

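These genes were singled out because the KO and WT effects under the same contrast differed by a test of the difference itself (edgeR, KO minus WT, log2 scale, adjusted over all tested genes). For pretreated against naive cells at 0 h it was Cenpa, at -0.336. For 2 h against 0 h in naive cells, resting on 1 KO library at 2 h, they were Mad2l1 at 0.26, Pttg1 at 0.661, Plk4 at 0.3711, Cenpe at 0.6334 and Ect2 at 0.3172. For 2 h against 0 h in pretreated cells they were Ccnb1 at -0.238, Pttg1 at 0.4535 and Cenpe at 0.5168. Cenpe and Pttg1 passed in both states, and the naive and pretreated comparisons share no library.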

How the results depend on the processing

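Named log2 changes were followed in the alternative runs for the 43 genes only. Per comparison these were the 9 fixed genes, up to 4 called genes of smallest p in each direction, the largest and smallest change, and genotype-difference calls. None of these that was called reversed under any alternative run. Named genes of the other lists were not followed there. Scaling by library totals alone, without TMM, gave 0 called genes of the 43 for KO and for WT pretreated against naive at 0 h, 0 for KO and 26 for WT at 2 h, 11 for KO naive 2 h against 0 h and 0 for WT pretreated 2 h against 0 h. The same scaling gave 16, 18, 19 and 20 calls for KO against WT at pretreated 2 h, pretreated 0 h, naive 2 h and naive 0 h, and 0, 1 and 0 for the genotype differences of pretreatment, of naive 2 h and of pretreated 2 h. It moved the median of all genes by -0.18 (WT pretreatment at 0 h), -0.27 (WT naive 2 h), -0.23 (KO naive 2 h), -0.16 (KO pretreated 2 h), 0.16 (pretreatment difference) and -0.11 (pretreated 2 h difference). Leaving out the 3 libraries low in Rn45s gave 11 calls for WT naive 2 h against 0 h, 5 for WT pretreated 2 h against 0 h and 0 for the pretreatment difference. DESeq2 gave 14 and 5 for those 2 comparisons and 2 each for the pretreatment and naive 2 h differences. Fitting only the groups compared gave 4 for WT pretreated 2 h against 0 h and 8 for the naive 2 h difference, no filter gave 3 for the pretreatment difference, and leaving out Rn45s and Lars2 gave 5 for the pretreated 2 h difference. Whether replicate numbers pair the samples was not settled. Over 21 pairs of groups the correlation of deviations was -0.017 to 0.114, and 1 exceeded 0.1, which cannot exclude a shared day or batch. A replicate block gave 5 calls for the pretreatment difference and stayed within 1.5 times elsewhere. Over all genes it raised calls of that difference to 649 from 445 and of WT pretreatment at 0 h to 3669 from 3307. Leaving out 1 library at a time gave, for pretreated against naive, 7 to 14 calls (KO, 2 h), 19 to 24 (KO, 0 h), 36 to 42 (WT, 2 h) and 34 to 37 (WT, 0 h). For 2 h against 0 h it gave 10 to 16 (KO pretreated), 16 to 17 (KO naive), 5 to 9 (WT pretreated) and 11 to 21 (WT naive). For KO against WT it gave 25 to 30, 26 to 28, 27 to 29 and 28 to 31 in the order above, and for the differences 0 to 3, 2 to 5 and 2 to 4. The genes called also changed from fit to fit, so the calls kept in every fit were often fewer than these lowest counts. The KO naive 2 h library could not be left out. Where calls changed, the cause was not tested.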
